A study of Homo sapiens with 18 samples.

Results

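Fibronectin and the receptors that bind it were followed through a cell-line model of breast cancer progression. The set holds 10 genes, found by symbol among the 35933 genes that have values in all 18 libraries: FN1, which encodes fibronectin, the integrin alpha chains ITGA5, ITGAV and ITGA2, the beta chains ITGB1, ITGB3, ITGB5, ITGB6 and ITGB8, and ITGBL1, a gene named for its likeness to integrin beta chains. RNA was sequenced from 3 lines of human breast epithelium: MCF10A, which is spontaneously immortalized and not tumorigenic, MCF10AT1, made from MCF10A by stable integration of a mutated HRas, and MCF10CA1h, made from MCF10AT1 by passage as xenografts in mice. All 6 groups, of 3 libraries each, had received a CRISPR construct that also expressed mCherry. The labels give the genotype either as a negative CRISPR control, whose construct carried a control guide, or as a METTL3 knockdown, whose guide was directed at exon 1 of METTL3, the methyltransferase that writes N6-methyladenosine (m6A) on mRNA. Cells were sorted and diluted to single cells to obtain clones, so a group may differ from its control by clone as well as by guide, and these cannot be told apart. The paper describes a single negative CRISPR line for each cell line and sequenced it beside 1 of the knockdown lines. The 3 libraries of a group therefore do not sample the spread between clones. Which of the knockdown lines was sequenced is not given. Nor is it said that the 3 replicates were separate cultures, so p-values measure the spread between these libraries, which may be technical.

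Fibronectin is a large glycoprotein that cells secrete and pull into fibrils of the extracellular matrix. Integrins are cell-surface receptors built of an alpha and a beta chain; the pair decides the ligand, and many pairs read the short RGD motif of fibronectin. Alpha 5 with beta 1 is the main receptor for fibronectin assembly, alpha V pairs with several beta chains to bind fibronectin, vitronectin or the latent form of TGF-beta, and alpha 2 with beta 1 binds collagen. A rise of fibronectin is a classical sign of epithelial-mesenchymal transition, while beta 6 is known as a beta chain of epithelia.

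All values are normalized counts from the deposited table, and its library sums lay between 21347352 and 31681834. Differences between groups were fitted with limma on log2(value + 1), and a gene is said to be called, higher, lower, risen or fallen where its p, adjusted by the Benjamini-Hochberg method over all genes tested, was under 0.05. The paper reports a knockdown of METTL3 protein on Western blots in each line, least in MCF10CA1h. It also reports a lesser decrease of METTL3 mRNA by RT-PCR. Its m6A measurements were lower in the knockdown lines, significantly in MCF10AT1 and MCF10CA1h but not in MCF10A. None of these was analysed here. In the libraries used here, METTL3 RNA was called lower in 1 of the 3 lines. It was 752, 686 and 459 in control MCF10A and 939, 981 and 509.8 in the libraries labelled knockdown (log2 fold change 0.33, adjusted p = 0.618), and 968, 1016 and 805 against 816, 752 and 902 in MCF10AT1 (-0.17, adjusted p = 0.707). In MCF10CA1h it fell from 1022, 1102 and 1280.4 to 825, 745 and 843 (-0.49, adjusted p = 0.0234). The RNA level is only a partial check of an edit in exon 1, and the groups are called labelled knockdown below. The labelled knockdown libraries of MCF10AT1 also stood apart on their labelled cell type. Of 14 epithelial markers tested there, 11 were lower and 0 higher than in the controls, and of 12 mesenchymal markers tested 6 were higher and 0 lower. Of all genes tested there, 13.0% were called. CDH2, THY1, COL3A1 and COL6A2 (control means 1.61, 1.53, 0.75 and 0) reached the mean of 10 needed for testing only through the labelled knockdown. ESRP1 and RAB25 reached it only through the controls. The direction of these genes in the counts was thus set by the filter. Summed epithelial markers were at 28963 to 56926 against 167698 to 206352 in the controls, and the 15 mesenchymal ones at 70651 to 83291 against 4206 to 5430. CDH1, the cadherin of epithelial junctions, was at 40.9 ± 34.7 against 3906 ± 2051 (SD, n = 3), while the keratin KRT8 was at 14957 ± 5186 against 20061 ± 5229. In MCF10A 1 of 14 epithelial markers was called, higher, and 0 of 8 mesenchymal ones (6 at an unadjusted p under 0.05). In MCF10CA1h 5 of 13 epithelial markers were called, 4 higher and 1 lower, and 4 of 13 mesenchymal ones, 3 higher and 1 lower. The shares called over all genes tested were 2.65% in MCF10A and 12.8% in MCF10CA1h. Of the endothelial markers, 0 of 2 were called in MCF10A (2 at an unadjusted p under 0.05), 0 of 1 in MCF10AT1 (0) and 1 of 2, lower, in MCF10CA1h. The endothelial marker tested in MCF10AT1, PECAM1, was at 517 ± 314 in the controls and 502 ± 129 in the labelled knockdown (SD, n = 3). The single leukocyte marker tested, CD14, was not called in MCF10A or MCF10AT1 (unadjusted p under 0.05 in both) and was lower in MCF10CA1h. In MCF10AT1, CD14 was at 898 ± 439 in the controls and 2075 ± 304 in the labelled knockdown. PTPRC, which defines leukocytes, was listed at 0 in all 6 MCF10AT1 libraries. The part of these marker shifts in the results on fibronectin and integrins was not tested.

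The 3 promoters below belong to FN1, the ligand, to ITGA5, the alpha chain called in every line, and to ITGB6, the beta chain with the lowest adjusted p of the 4 called in MCF10AT1, and they are shown so that the start-site sequence can be read beside those values. Each runs from 250 bases before to 30 bases after the transcription start given by RefSeq on GRCh38.p14, 5′ to 3′ on the minus strand, and capitals mark motifs found by letters on either strand. The FN1 window (chr2:215436039-215436318) holds a cAMP response element, TGACGTCA, that begins 183 bases before the start and a CCAAT box that begins 162 bases before it. The ITGA5 window (chr12:54419237-54419516) holds an AP-1 site, TGAGTCA, that begins 6 bases before the start and whose other strand reads TGACTCA. The ITGB6 window (chr2:160200243-160200522) holds an E-box of the kind that ZEB and SNAI proteins bind, CACCTG, that begins 70 bases before the start and whose other strand reads CAGGTG.
FN1: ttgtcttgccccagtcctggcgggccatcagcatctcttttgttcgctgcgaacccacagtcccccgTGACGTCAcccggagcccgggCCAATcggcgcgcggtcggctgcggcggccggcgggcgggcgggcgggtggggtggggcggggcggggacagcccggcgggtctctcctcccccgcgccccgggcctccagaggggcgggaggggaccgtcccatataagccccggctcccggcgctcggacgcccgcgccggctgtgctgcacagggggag
ITGA5: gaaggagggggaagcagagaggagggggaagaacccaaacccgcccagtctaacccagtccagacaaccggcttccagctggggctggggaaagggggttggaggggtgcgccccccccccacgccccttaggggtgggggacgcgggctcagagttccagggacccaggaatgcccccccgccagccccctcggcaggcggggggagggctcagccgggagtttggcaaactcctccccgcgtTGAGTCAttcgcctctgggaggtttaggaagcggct
ITGB6: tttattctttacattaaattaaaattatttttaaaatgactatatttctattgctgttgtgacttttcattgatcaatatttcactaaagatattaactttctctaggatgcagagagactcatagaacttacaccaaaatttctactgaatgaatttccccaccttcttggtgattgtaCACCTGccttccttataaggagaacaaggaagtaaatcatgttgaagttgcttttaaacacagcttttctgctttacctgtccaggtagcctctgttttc
Of 35116 promoter windows of the same length, 1.85% held the cAMP response element, 4.73% the AP-1 site, 19.25% this E-box and 33.65% a CCAAT box (ATTGG on the other strand). Promoters were matched for 9 of the 10 genes, not for ITGB3. Among the other windows, the E-box letters occurred before 1 of 3 starts of ITGB5 and a CCAAT box in the window of ITGB8 and at 1 of 2 starts of ITGB1. A match is a description of letters and not evidence of a bound site.

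**Figure D1:**
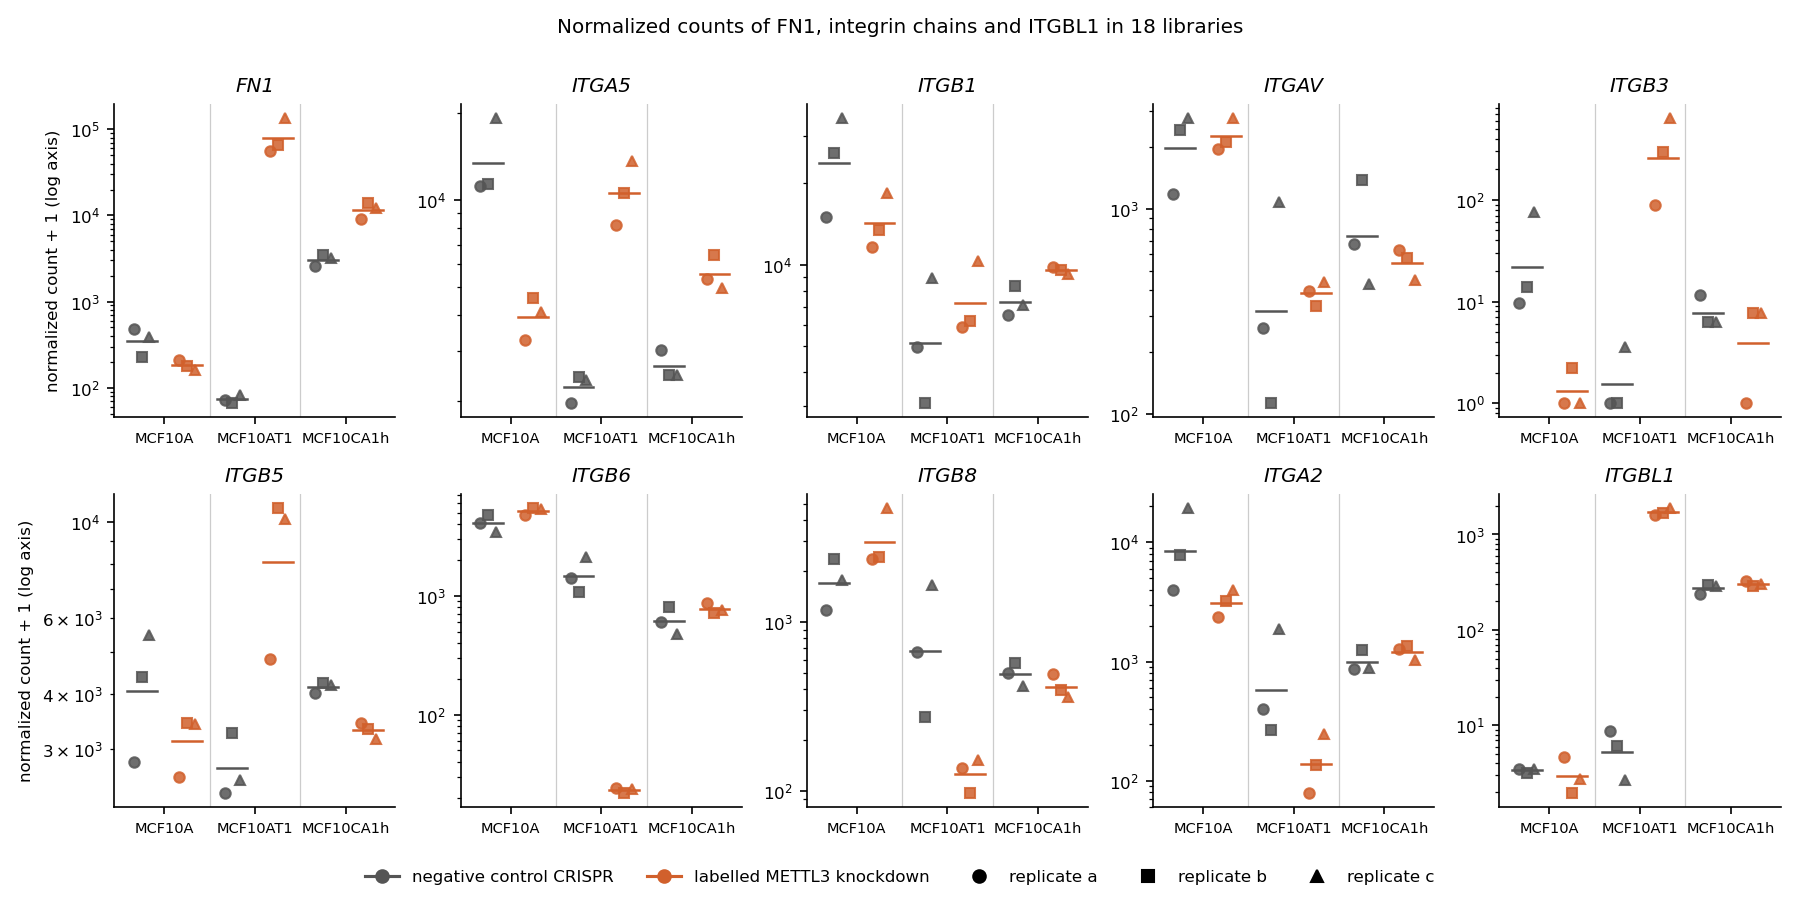
Normalized count plus 1 (log axis) of each of the 10 genes in each of the 18 libraries, by cell line, with grey for negative control CRISPR, orange for labelled METTL3 knockdown, marker shape for the replicate letter and a line at the group mean on the log scale. FN1 in labelled knockdown MCF10AT1 sits between 55947 and 134507 against 65.1 to 81.9 in its controls, and ITGB6 in the same libraries between 20.9 and 23.3 against 1072 to 2122.

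The gene with the widest range was the ligand. In MCF10AT1, FN1 was at 70.5, 65.1 and 81.9 in the control libraries and at 55947, 65869 and 134507 in the labelled knockdown libraries. The lowest of the latter was far above the highest control, and the ratio of the means was 1179. In MCF10CA1h, FN1 went from 2594, 3453 and 3219 to 9157, 14083 and 12135, again with no overlap, a ratio of means of 3.82. In MCF10A the order was the other way: 479, 227 and 386 in the controls and 206, 179 and 159 in the labelled knockdown, without overlap. On the log2 scale the differences were 10.08 ± 0.36 (SE, n = 3 per group, adjusted p = 1.87e-05) in MCF10AT1 and 1.92 ± 0.16 (adjusted p = 7.99e-05) in MCF10CA1h, both called. The value of -0.94 ± 0.30 in MCF10A was not called (adjusted p = 0.142). Here and below, fewer cells that express a gene and less of its RNA per cell cannot be told apart in bulk RNA.

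Across the 10 genes, 7 of 10 tested were called in MCF10AT1, 5 higher and 2 lower, where 13.0% of all tested genes were called. With library sums set equal, 6 were called there, 5 higher and 1 lower. ITGB3 and ITGBL1 reached the mean of 10 in MCF10AT1 only through the labelled knockdown libraries (control means 0.87 and 4.84). They could thus enter these counts only as higher. In MCF10CA1h 4 of 9 were called, 3 higher and 1 lower, against 12.8% of all genes. In MCF10A 1 of 9 was called, lower, against 2.65% of all genes, and 6 had an unadjusted p under 0.05. With the replicate letter as a block 4 of 9 were called in MCF10A, where the share of all genes was then 7.6%. ITGB3 was among these 4 and among the 6, and it reached the mean of 10 in MCF10A only through the controls. It could thus enter these counts only as lower. The median log2 fold change of the tested members was 1.03 in MCF10AT1, 0.30 in MCF10CA1h and -0.75 in MCF10A, beside 0.02, -0.02 and -0.00 over all genes tested. ITGBL1 in MCF10A and ITGB3 in MCF10CA1h fell under a mean of 10 and were not tested.

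**Figure D2:**
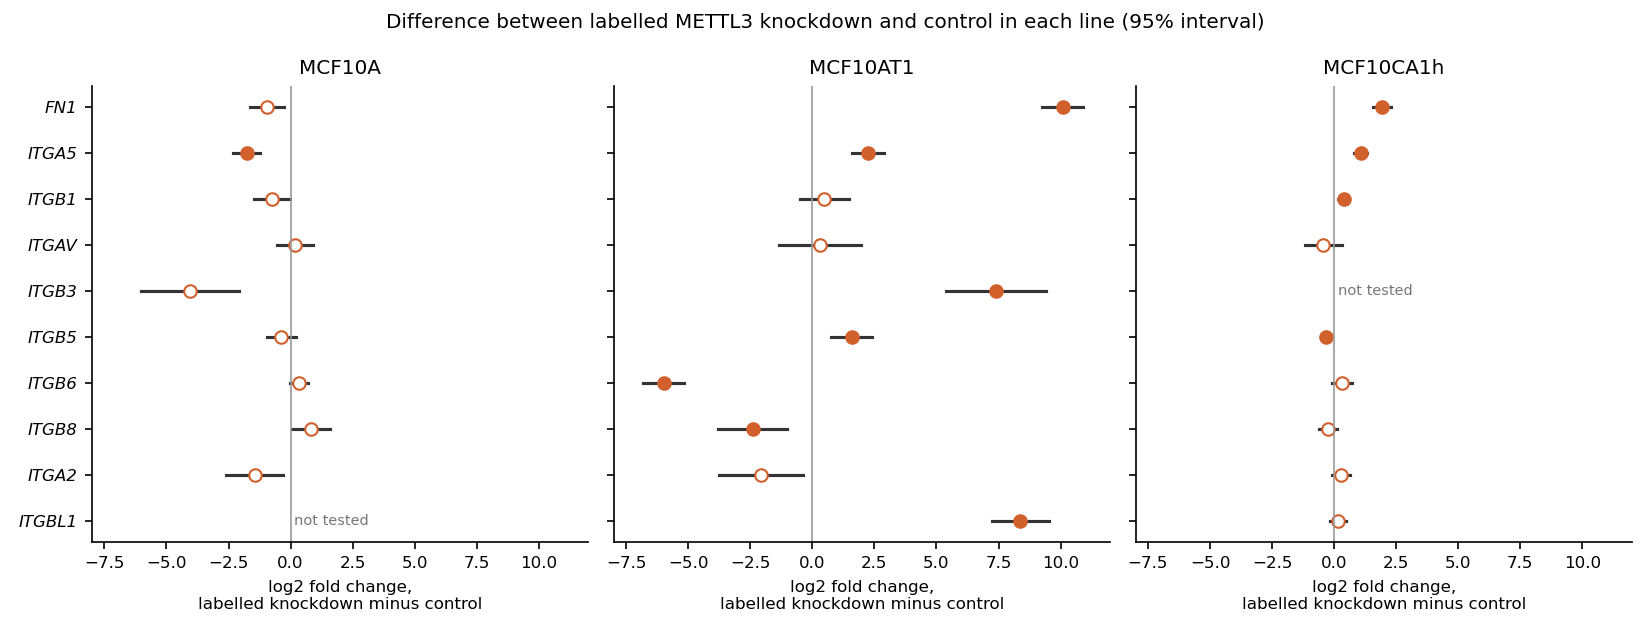
Log2 fold change of each gene, labelled METTL3 knockdown minus negative control, in MCF10A (left), MCF10AT1 (middle) and MCF10CA1h (right), with bars for the 95% interval from limma and filled points for an adjusted p under 0.05. FN1 lies at 10.08 in MCF10AT1, 1.92 in MCF10CA1h and -0.94 in MCF10A, and ITGB6 at -5.99 in MCF10AT1.

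ITGA5, the alpha chain of the main fibronectin receptor, was the one member called in every line. In MCF10A its level was 11171, 11375 and 19232 in the controls and 3257, 4569.9 and 4081 in the labelled knockdown. In MCF10AT1 it was 1970.5, 2433 and 2364 against 8193, 10543 and 13707, and in MCF10CA1h 3025, 2474 and 2474 against 5320.4, 6434 and 4967. No group overlapped its control, and the labelled knockdown was below the control in MCF10A and above it in both derived lines. The log2 differences were -1.78 ± 0.24 (SE, adjusted p = 0.0133) in MCF10A, 2.24 ± 0.28 (adjusted p = 0.00145) in MCF10AT1 and 1.07 ± 0.12 (adjusted p = 0.000513) in MCF10CA1h. The call in MCF10A was lost without labelled knockdown library a (-1.64, adjusted p = 0.0633) or library c (-1.80, adjusted p = 0.0668).

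ITGB1, the beta chain shared by alpha 5, alpha 2 and others, varied less. Its libraries ran from 15037 to 34868 in control MCF10A and from 11655 to 18429 in the labelled knockdown, which overlapped. In MCF10AT1 the controls, at 4945, 3076 and 8952, also overlapped the labelled knockdown, at 5873, 6178 and 10319. In MCF10CA1h the 3 labelled knockdown libraries, at 9776, 9607 and 9239, were all above the controls, at 6502, 8346 and 7100.3. That difference of 0.39 ± 0.10 was called (adjusted p = 0.0331), but it was lost on leaving out any single library other than control b (0.31 to 0.41, adjusted p from 0.0638 to 0.143) and in a fit of all 18 libraries (adjusted p = 0.856). The call was also lost with library sums set equal (adjusted p = 0.0701), with no filter (0.0529) and with no trend (0.124). Without pairing, the differences of -0.75 in MCF10A (adjusted p = 0.252) and 0.49 in MCF10AT1 (adjusted p = 0.507) were not called. With the replicate letter as a block, the value in MCF10A was called (adjusted p = 0.0278), as it was without control library a (-1.08, adjusted p = 0.0309).

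ITGAV, the alpha chain that pairs with beta 1, 3, 5, 6 or 8, was not called in any line. Its labelled knockdown libraries overlapped their controls in each: 1970 to 2770 against 1177 to 2771 in MCF10A, 335 to 440.3 against 112 to 1080 in MCF10AT1, and 449.5 to 629 against 432 to 1385 in MCF10CA1h. The log2 differences were 0.18 (95% interval -0.54 to 0.90), 0.29 (-1.35 to 1.94) and -0.43 (-1.18 to 0.32), so changes of either sign of the size of the intervals were within the spread of these libraries. Its partners did differ.

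ITGB6, the epithelial beta chain that with alpha V binds fibronectin and latent TGF-beta, was at 1426, 1072 and 2122 in control MCF10AT1 and at 23.3, 20.9 and 22.8 in the labelled knockdown. The labelled knockdown libraries lay within 1.12 times of one another, far under every control, and the log2 difference was -5.99 ± 0.37 (SE, adjusted p = 4.8e-05). In MCF10A the values were 4095, 4823 and 3464 against 4820.3, 5458 and 5344, and in MCF10CA1h 601, 811 and 480.1 against 865, 709.8 and 760.0. Both pairs of groups overlapped, and neither difference, 0.35 (adjusted p = 0.302) and 0.33 (adjusted p = 0.264), was called.

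ITGB8, which with alpha V binds latent TGF-beta, was also lower in MCF10AT1: 668, 273 and 1652 in the controls against 136, 96.4 and 152 in the labelled knockdown. The groups did not overlap, yet the controls differed among themselves by 6.05 times. The log2 difference of -2.40 ± 0.61 (SE, adjusted p = 0.0355) missed the threshold on leaving out any single library other than control b (-2.54 to -1.75, adjusted p from 0.0556 to 0.138) and with library sums set equal (-2.57, adjusted p = 0.0641). In MCF10A (0.81, adjusted p = 0.235) and MCF10CA1h (-0.25, adjusted p = 0.358) the groups overlapped and ITGB8 was not called.

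ITGB5, the beta chain of a vitronectin receptor, went from 2367, 3263 and 2544 in control MCF10AT1 to 4823, 10729.6 and 10126 in the labelled knockdown. All 3 labelled knockdown libraries were above all controls, with library a the lowest of them. The log2 difference was 1.58 ± 0.36 (SE, adjusted p = 0.0232) and was lost without labelled knockdown library b (adjusted p = 0.123) or c (0.0666) or without control library a (0.109). In MCF10CA1h the direction was opposite: 4027, 4241 and 4206 in the controls and 3435, 3335 and 3163 in the labelled knockdown, with no overlap. That difference, -0.33 ± 0.08 (adjusted p = 0.0301), was small and was lost on leaving out any single library other than labelled knockdown a (-0.35 to -0.30, adjusted p from 0.0669 to 0.0959), with the letter as a block (adjusted p = 0.0666) and in the fit of all 18 libraries (adjusted p = 0.842). The call was also lost with no filter (adjusted p = 0.0643) and with no trend (0.101). In MCF10A the value was -0.38 (adjusted p = 0.479), and the groups overlapped.

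ITGB3, the beta chain of a receptor that binds vitronectin, fibronectin and osteopontin, was listed at 0 in 2 of the 3 control MCF10AT1 libraries and at 2.6 in the other, and at 88, 294 and 634 in the labelled knockdown. All labelled knockdown libraries were above the controls, and they differed by several times among themselves. The fitted log2 difference of 7.38 ± 0.88 (SE, adjusted p = 0.00113) depends on the pseudocount, since the controls are near 0, and lay between 5.50 and 8.14 over the alternatives, past the threshold in each. In MCF10A, ITGB3 was at 8.58, 13 and 74.8 in the controls and at 0, 1.22 and 0 in the labelled knockdown. It reached the mean of 10 there only through the controls, so it could be called only as lower. The groups did not overlap, and the difference of -4.05 just missed the threshold (adjusted p = 0.0517). With the letter as a block it passed (adjusted p = 0.0263), as it did with a pseudocount of 0.5 (adjusted p = 0.0483), without the filter (0.0354) and without control library a (0.0214). Without control library c, the highest, ITGB3 fell under the mean of 10 and was not tested. Over the alternatives that tested it, the difference ran from -4.80 to -2.32 and limma's adjusted p from 0.0214 to 0.175. In MCF10CA1h it was at 10.7, 5.25 and 5.25 and at 0, 6.79 and 6.71.

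A part of the beta chains open to alpha V was compared by values per length, here the normalized count per kilobase of the canonical transcript. Each share is that of a chain in the sum of ITGB3, ITGB5, ITGB6 and ITGB8. ITGB1, which pairs with alpha V and with other alpha chains, was left out. Its mean per kilobase was above that of each of these chains in every group. In labelled knockdown MCF10AT1 it was at 1996 ± 665, against 1928 ± 732 for ITGB5. In control MCF10A, ITGB5 (45.9% ± 9.3, SD, n = 3) and ITGB6 (44.4% ± 9.8) held like shares and ITGB8 9.48% ± 1.77. In control MCF10AT1 the shares were 59.7% ± 13.4 for ITGB5 and 31.5% ± 7.5 for ITGB6, and in its labelled knockdown 96.3% ± 1.5 and 0.278% ± 0.148. The 3 labelled knockdown libraries, with ITGB5 at 94.7% to 97.4%, did not overlap their controls, at 47.2% to 73.8%. ITGB3 came to 2.58% ± 1.64 there, and to under 1% in every library of the other groups. In MCF10CA1h ITGB5 held 83.0% ± 3.1 in the controls and 77.7% ± 1.5 in the labelled knockdown, and ITGB6 12% ± 2.6 and 17.4% ± 1.2. In labelled knockdown MCF10A, ITGB6 had the most RNA per length of the chains in the sum, at 51.8% ± 4.2 against 32.4% ± 2.1 for ITGB5. The shares are descriptions of RNA and carry no test, since chains share a total.

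**Figure D3:**
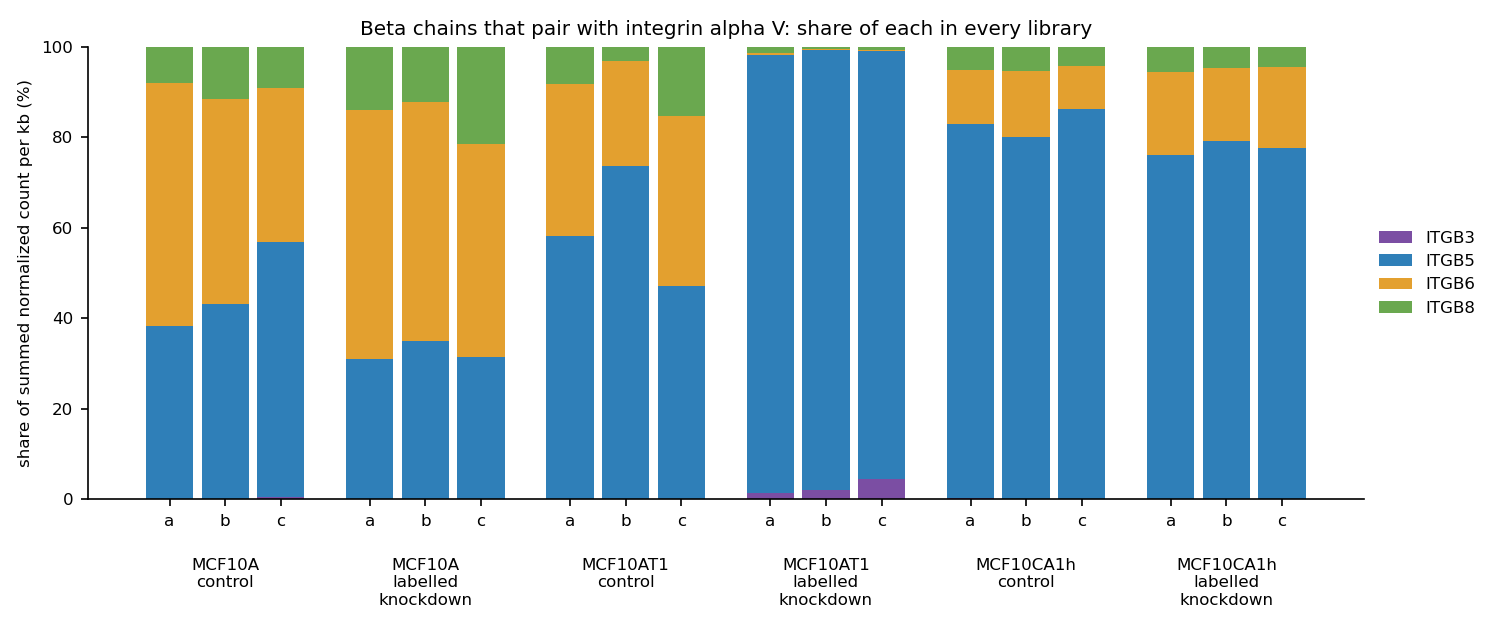
Share (%) of ITGB3, ITGB5, ITGB6 and ITGB8 in their summed normalized count per kilobase, a stacked bar per library on an axis from 0, grouped by line and CRISPR arm with the replicate letter under each bar. ITGB5 fills 94.7% to 97.4% of the bars of labelled knockdown MCF10AT1 and 47.2% to 73.8% of its controls, and ITGB6 shrinks from 31.5% to 0.278% on average.

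ITGA2, the collagen-binding partner of beta 1, was at 397, 265 and 1857 in control MCF10AT1 and 77.8, 135 and 247 in the labelled knockdown. It was at 3973, 7821 and 19266 in control MCF10A and 2376, 3186 and 3959.6 in its labelled knockdown. In both lines the labelled knockdown lay below the controls without overlap, by -2.07 ± 0.74 (SE, adjusted p = 0.108) and -1.44 ± 0.50 (adjusted p = 0.178) on the log2 scale, and neither was called. With the letter as a block both were (adjusted p = 0.00244 and 0.0163), and the value in MCF10A was also called without control library a (-1.98, adjusted p = 0.0198). In MCF10CA1h the groups overlapped (0.30, adjusted p = 0.268).

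ITGBL1 encodes a secreted protein with repeats like those in the stalk of beta chains and is no receptor itself. In MCF10AT1 it was at 7.76, 5.09 and 1.66 in the controls and at 1611, 1684 and 1882 in the labelled knockdown. The 3 labelled knockdown libraries lay close together and far above the controls (log2 difference 8.37 ± 0.50, SE, adjusted p = 4.45e-05, between 7.51 and 8.74 over the alternatives). In MCF10CA1h it was at 238, 297 and 291 in the controls and 323, 290.0 and 299 in the labelled knockdown, which overlapped (0.15, adjusted p = 0.569). In MCF10A no library exceeded 3.66.

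Whether the difference between labelled knockdown and control itself differed between lines was tested by interaction contrasts over all 18 libraries. Between MCF10AT1 and MCF10A, 7 of the 10 genes were called, against 21.6% of all genes, and between MCF10CA1h and MCF10AT1 also 7, against 18.2%. In the latter 2 were higher and 5 lower, and with library sums set equal 1 was higher and 5 lower. Between MCF10CA1h and MCF10A 2 were called, against 5.34% of all genes. With the replicate letter as a block 4 were called, against 8.07%. Over the 18 libraries ITGB3 reached the mean of 10 only through labelled knockdown MCF10AT1. The filter thus set its direction in the contrasts with MCF10AT1. FN1 and ITGA5 were called in all 3 contrasts. The FN1 difference in MCF10AT1 exceeded that in MCF10A by 11.02 ± 0.43 (SE, adjusted p = 2.04e-10), and the ITGA5 one by 4.01 ± 0.32 (adjusted p = 1.9e-07), on the log2 scale. In MCF10CA1h the excess over MCF10A was 2.86 ± 0.43 for FN1 (adjusted p = 0.000792) and 2.84 ± 0.32 for ITGA5 (adjusted p = 0.000102). With the letter as a block, ITGB1 was called between MCF10AT1 and MCF10A (1.23, adjusted p = 0.00438) and between MCF10CA1h and MCF10A (1.14, adjusted p = 0.0202). ITGA2 was then called between MCF10CA1h and MCF10A (1.74, adjusted p = 0.0455) and between MCF10CA1h and MCF10AT1 (2.37, adjusted p = 0.00396), which without the block had adjusted p = 0.324 and 0.0713. Leaving out 1 library also brought in ITGB1 between MCF10AT1 and MCF10A, without control MCF10AT1 c (1.63, adjusted p = 0.0122) or control MCF10A a (1.57, adjusted p = 0.0281), and ITGA2 between MCF10CA1h and MCF10AT1, without labelled knockdown MCF10AT1 c (2.78, adjusted p = 0.0362) or control MCF10AT1 b (2.93, adjusted p = 0.0186). The ITGA5 contrast between MCF10CA1h and MCF10AT1 (-1.17, adjusted p = 0.018) was lost without control MCF10CA1h library a (adjusted p = 0.0535), and the ITGB8 one (2.15, adjusted p = 0.0323) without labelled knockdown b or control a or c of MCF10AT1, or labelled knockdown a or b or control a or c of MCF10CA1h (1.5 to 2.18, adjusted p from 0.0533 to 0.08).

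The negative controls alone also differed by line, and these comparisons share control libraries with those above. Over the control libraries, ITGB3 reached the mean of 10 only through MCF10A, and ITGBL1 only through MCF10CA1h. In comparisons with that line, each could thus be called only as higher there. From MCF10A to MCF10AT1, 7 of the 10 genes were lower and 0 higher, against 28.1% of all genes called in either direction. The log2 difference was -2.25 ± 0.29 (SE) for FN1 (adjusted p = 0.00127), -2.58 ± 0.23 for ITGA5 (adjusted p = 0.000361) and -2.21 ± 0.40 for ITGB1 (adjusted p = 0.00592). It was -3.86 ± 0.72 for ITGA2 (adjusted p = 0.00664) and -1.47 ± 0.29 for ITGB6 (adjusted p = 0.00805). ITGAV (-2.65, adjusted p = 0.0295) was called only as long as no single one of 4 libraries was left out, control MCF10A b or c or control MCF10AT1 a or b (adjusted p from 0.0759 to 0.106). ITGB3 (-3.82, adjusted p = 0.0142) had a value of -2.23 with a pseudocount of 5 and was lost without control MCF10AT1 library a (adjusted p = 0.0528). ITGB8 (-1.34, adjusted p = 0.0888) was called without control MCF10AT1 library c (-1.99, adjusted p = 0.00342), and ITGB5 (-0.59, adjusted p = 0.0984) without control MCF10A library a (-0.86, adjusted p = 0.0187).

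From MCF10A to MCF10CA1h 7 of the 10 were called, 2 higher and 5 lower, against 37.8% of all genes. FN1 was higher by 3.14 ± 0.29 (adjusted p = 0.000135) and ITGBL1 by 6.33 ± 0.49 (adjusted p = 6.34e-05). Of the 8 receptor chains 5 were lower and 0 higher: ITGA5, with -2.35 ± 0.23 (adjusted p = 0.000186), ITGB1, with -1.71 ± 0.40 (adjusted p = 0.00919), ITGA2, with -3.10 ± 0.72 (adjusted p = 0.00903), ITGB6, with -2.73 ± 0.29 (adjusted p = 0.000251), and ITGB8 (-1.78, adjusted p = 0.0286). ITGAV (-1.43, adjusted p = 0.155), ITGB3 (-1.49, adjusted p = 0.203) and ITGB5 (0.03, adjusted p = 0.928) were not called. The ITGB8 call was lost without control MCF10A b or c or any control of MCF10CA1h (-1.89 to -1.55, adjusted p from 0.0587 to 0.102). It was also lost with library sums set equal (-1.81, adjusted p = 0.0585). FN1 thus stood above MCF10A in the control libraries of the xenograft-derived line while the receptor chain ITGA5 stood below. From MCF10AT1 to MCF10CA1h 3 were called, against 21.8% of all genes. These were FN1 (5.39 ± 0.29, adjusted p = 1.08e-05) and ITGBL1 (5.72 ± 0.49, adjusted p = 0.000125), both higher, and ITGB6 (-1.26 ± 0.29, adjusted p = 0.0141), lower. With library sums set equal 3 were higher and 0 lower. ITGB6 was also lost without control MCF10CA1h library a (adjusted p = 0.0554) or c (adjusted p = 0.0635). Without control MCF10AT1 library c, 6 were called, ITGAV (2.10, adjusted p = 0.0172), ITGA2 (1.60, adjusted p = 0.0436) and ITGB3 (2.94, adjusted p = 0.0301) in addition. The share of all genes called was then 35.8%.

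Per kilobase of transcript, ITGB1 had the highest level of the 10 genes in 5 of the 6 groups. In control MCF10A it was at 6775 ± 2660 normalized counts per kilobase (SD, n = 3), followed by ITGA5 at 3277 ± 1081 and ITGA2 at 1320.04 ± 1014, with spreads that overlap between ITGA2 and its next neighbour ITGB5 (949 ± 303). In labelled knockdown MCF10AT1 the highest was FN1, at 10184 ± 5099, followed by ITGA5 at 2545 ± 651, ITGB1 at 1996 ± 665 and ITGB5 at 1928 ± 732, the last 3 of which do not differ beyond their spread. ITGB6 closed the order in those libraries at 4.81 ± 0.28. In control MCF10AT1 FN1 had been near the foot of the order, at 8.64 ± 1.02, above ITGBL1 and ITGB3. In MCF10CA1h FN1 stood between ITGA5 and ITGB6 in the controls (368 ± 53) and level with ITGA5 in the labelled knockdown (1405 ± 296 and 1311 ± 180).

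Replicates agreed to different degrees by gene. The pooled SD within groups, on the log2 scale, was 0.28 for ITGB6, 0.29 for ITGA5, 0.36 for ITGB5 and 0.40 for FN1. It was 0.45 for ITGBL1 and 0.47 for ITGB1, but 0.64 for ITGB8, 0.82 for ITGAV, 0.86 for ITGA2 and 1.25 for ITGB3. The median over genes with a mean of at least 50 was 0.37. The libraries also differed in how gene values depart from their group mean with transcript length: the correlation across 12455 genes ran from -0.41 in control MCF10AT1 library b to 0.48 in control MCF10AT1 library c, with -0.35 in control MCF10A library a. Over the 18 libraries the departures of ITGAV (r = 0.87), ITGB1 (0.87), ITGA2 (0.84), ITGB8 (0.80) and ITGB6 (0.74) went with this measure. Those of ITGB3 (0.40), ITGA5 (0.37), ITGB5 (0.34) and FN1 (0.11) did so less, and for ITGBL1 r was negative (-0.49). The points share library and group means and no p is given. The part of transcript length in the calls on these genes was not tested.

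**Figure D4:**
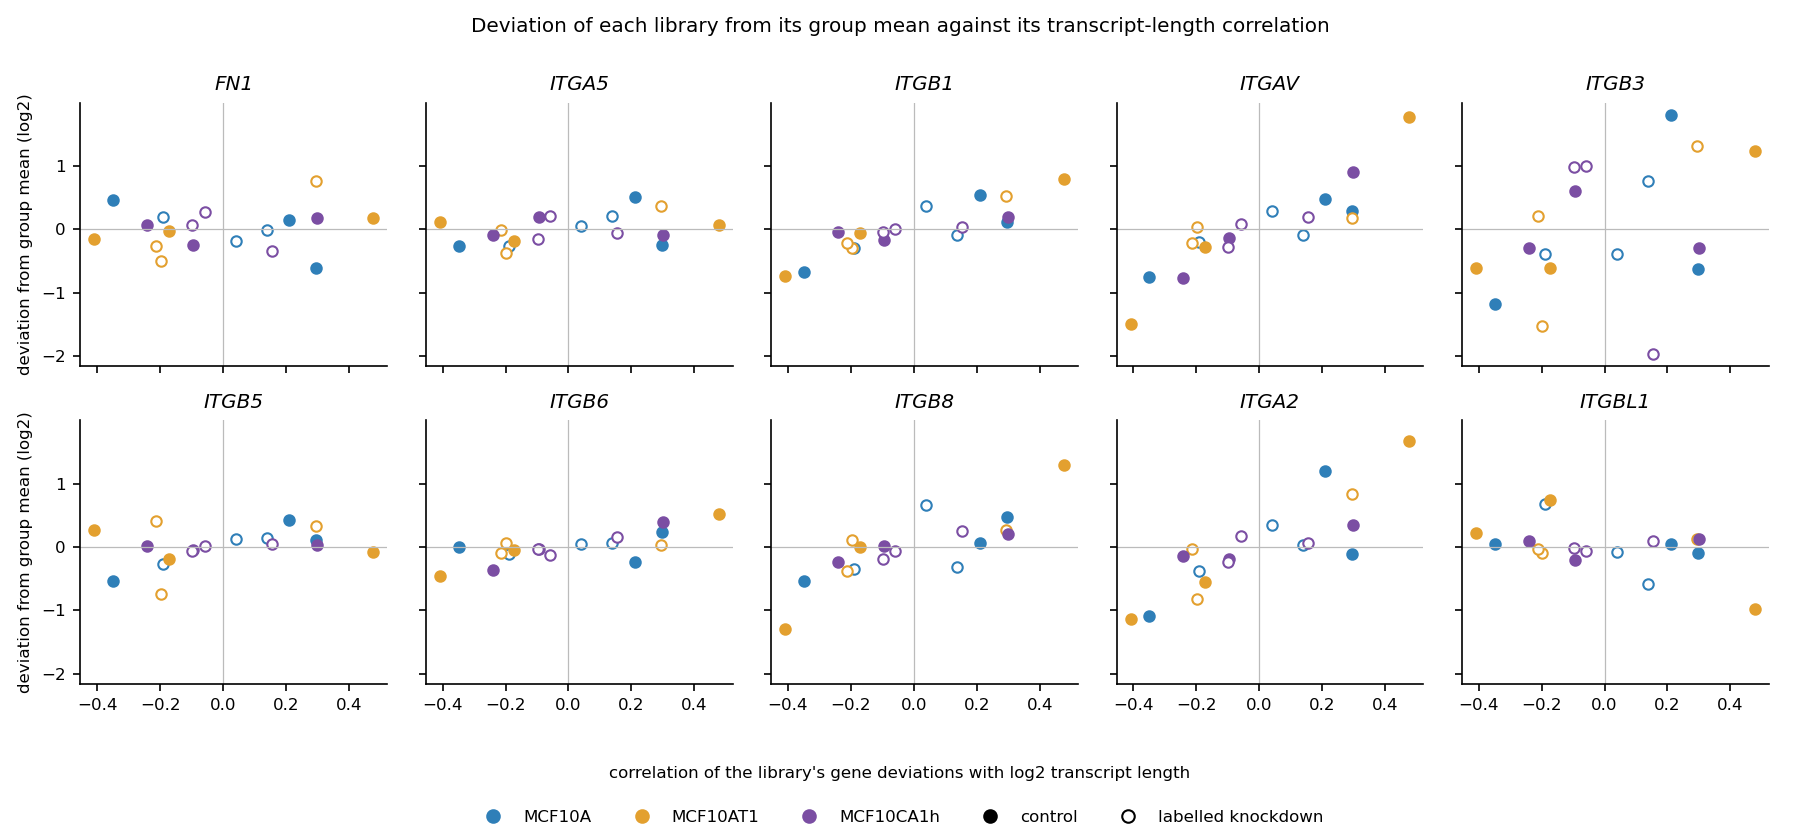
Departure of each of the 18 libraries from its group mean (log2) for each gene, against the correlation of that library's gene departures with log2 transcript length, coloured by line, filled for negative control and open for labelled knockdown. ITGAV, ITGB1 and ITGA2 climb from lower left to upper right (r of 0.87, 0.87 and 0.84 over the 18 libraries), while FN1 shows little slope (0.11).

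The genes lie on several chromosomes, and their sequence features were read from GENCODE v44 on hg38. FN1 (chr2:215360440-215436073, minus strand) has a canonical transcript of 8390 bases in 46 exons, ITGA5 (chr12:54395261-54419266, minus) of 4250 bases in 30 exons, ITGB6 (chr2:160099667-160200313, minus) of 4641 bases in 15 exons and ITGBL1 (chr13:101452593-101720856, plus) of 2436 bases in 11 exons. GGACT, the core of the commonest m6A sequence context, occurred 2.03 times per kilobase in ITGB5, 1.72 in ITGB6, 1.65 in ITGA5, 1.64 in ITGBL1 and 0.83 in FN1, against a median of 0.92 over 20046 coding transcripts, and least in ITGA2 (0.38) and ITGB8 (0.45). The letters do not show methylation, which was not measured in these libraries. ITGA5, ITGAV, ITGB1, ITGB8 and ITGBL1 overlap exons of genes on the other strand (GPR84-AS1, ENSG00000227227, ITGB1-DT, ITGB8-AS1 and FGF14). Whether quantification used the strand is not given in the sources used here, so reads of the pairs may not be told apart.

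The wider pathway was followed in 4 lists. Over all genes tested, 13.0% were called in MCF10AT1, 12.8% in MCF10CA1h and 2.65% in MCF10A. Of the other integrin chains, 7 of 12 tested were called in MCF10AT1, 6 higher and 1 lower (list median 1.25), 3 of 12 in MCF10CA1h, 2 higher and 1 lower (0.12), and 0 of 10 in MCF10A (-0.15, with 2 at an unadjusted p under 0.05). ITGA7, a laminin receptor chain (3.88, adjusted p = 0.000773), and ITGA11, a collagen receptor chain (3.48, adjusted p = 0.0279), were higher in labelled knockdown MCF10AT1. ITGB7, best known from lymphocytes (-3.21, adjusted p = 0.0417), was lower there. ITGA11 was at 93.3 ± 96.6 against 5.02 ± 2.01 in the controls, and ITGB7 at 3.17 ± 2.76 against 28.9 ± 3.4 (SD, n = 3). Each reached the mean of 10 only through the group where it was high, so each could be called in 1 direction only. In MCF10CA1h the partners of laminin receptors ITGA3 (0.59, adjusted p = 0.00576) and ITGB4 (0.58, adjusted p = 0.01) were higher and ITGA2B, a platelet chain with low values here (-1.65, adjusted p = 0.0294), lower. ITGA2B, at 6.27 ± 0.78 against 21.9 ± 4.0, also reached the mean of 10 only through the controls.

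Among other RGD ligands, 4 of 10 tested were higher in MCF10AT1 and 0 lower (median 1.28), 3 of 11 were called in MCF10CA1h, 2 higher and 1 lower (0.23), and 0 of 10 in MCF10A (0.16, with 3 at an unadjusted p under 0.05). SPP1, which encodes osteopontin, rose in MCF10AT1 from 0.393 ± 0.681 to 441 ± 288 (SD, n = 3, adjusted p = 0.000174) and in MCF10CA1h from 22.2 ± 15 to 135 ± 50 (adjusted p = 0.00402). FBN1, the microfibril protein fibrillin, rose in MCF10AT1 by 5.09 (adjusted p = 0.000547). MFGE8, a bridging ligand of alpha V, rose in both (1.81, adjusted p = 0.00404, and 0.39, adjusted p = 0.0353), and CCN2, a matricellular growth factor, fell in MCF10CA1h (-0.97, adjusted p = 0.0111).

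Of the focal adhesion adaptors and integrin activators, 3 of 21 were called in MCF10AT1, 2 higher and 1 lower (median 0.30). That is near the share of 13.0% over all genes tested there. In MCF10CA1h 7 of 21 were called, all higher (0.35), against 12.8% of all genes. In MCF10A 0 of 21 were called (-0.20, with 7 at an unadjusted p under 0.05), against 2.65%. In MCF10AT1 the adaptors TNS2 (3.38, adjusted p = 0.000478) and TLN1, a talin that links beta tails to actin (1.26, adjusted p = 0.0344), were higher, and FERMT1, the epithelial kindlin, lower (-2.10, adjusted p = 0.00206). In MCF10CA1h TLN2 (1.16, adjusted p = 0.000935), TGFB1I1 (0.83, adjusted p = 0.0161) and TNS2 (0.75, adjusted p = 0.023) had the largest values. Of the co-receptors and matrix partners of fibronectin, 8 of 9 were called in MCF10AT1, 7 higher and 1 lower (median 2.25), 4 of 8 in MCF10CA1h, all higher (0.42), and 1 of 7 in MCF10A, lower (-0.88). TGM2, the transglutaminase that cross-links fibronectin and serves as its co-receptor, rose from 126 ± 11 to 12844 ± 2623 in MCF10AT1 (adjusted p = 1.87e-05) and from 978 ± 258 to 3988 ± 761 in MCF10CA1h (adjusted p = 0.000159). FBLN2, a fibulin of the matrix, was listed at 0 in the MCF10AT1 controls and at 141 ± 33 in the labelled knockdown, and the heparan sulfate proteoglycan SDC2 rose by 3.95 (adjusted p = 0.0153). PLAUR, the urokinase receptor, fell in MCF10A (-1.29, adjusted p = 0.0172) and rose in MCF10CA1h (0.58, adjusted p = 0.0144), as did SDC1 in MCF10CA1h (0.56, adjusted p = 0.0023). The background shares of 13.0%, 12.8% and 2.65% hold for these counts too. Listed genes near 0 in 1 group, such as SPP1 and FBLN2 in control MCF10AT1, passed the filter only through the other group. They could thus be called in 1 direction only.

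The genes whose pattern was most like that of FN1, by Pearson's r of log2 values over the 18 libraries, were COL6A2 (0.972), SRGN (0.969), VIM (0.966), CADM3 (0.966) and LHFPL6 (0.965). Those most like ITGB6 were DSG3 (0.990), DSC2 (0.987), ABCA12 (0.984), ARHGEF4 (0.983) and INPP5D (0.983), of which DSG3 and DSC2 encode desmosomal cadherins. Among the members, the value nearest to FN1 was that of ITGBL1 (0.943) and the farthest that of ITGB6 (-0.849), and ITGB8 (0.911) was nearest to ITGB6. The libraries fall into groups by line and CRISPR arm, 1 of which holds the extreme values of both genes, so these correlations describe the group pattern and carry no p.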

How the data were processed

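RNA-seq of 18 libraries, 3 in each of 6 groups, was analysed from the table the authors deposited, with groups taken from the genotype and cell line labels. The authors depleted ribosomal RNA, made stranded libraries (the labels say polyA RNA, a conflict not settled here), pseudo-aligned reads to the hg38 transcriptome with Kallisto 0.46.1 and normalized gene counts with DESeq2 1.26.0 in R 4.1.1, per the submitters' processing notes and methods. The annotation release is not given in the sources used here. The deposited values are a signal on a common scale, not reads. Between 7.4% and 33.6% of low values in a library were whole multiples of its commonest low value, so reads were not recovered. Depth per gene is unknown, and counting intervals cannot be given. The 24646 rows without values were not used, and 294 genes share a symbol with a gene of higher values, which was the one used.

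Differences were fitted with limma 3.58.1 in R 4.3.3 (lmFit, eBayes with trend) on log2(normalized count + 1), keeping genes whose mean reached 10 in the fitted libraries, so fold changes of low genes are understated. A gene with almost no signal in a group passes this filter only through a group where it is high. The filter then sets its direction in a count of calls. p-values are two-sided and adjusted by Benjamini-Hochberg over all genes tested, with a threshold of 0.05. Each line was fitted alone, the 9 controls together, and interactions over 18 libraries. An exact permutation test of 3 libraries against 3 cannot go below p = 0.1 and was not used. Scripts were tested on simulated data. Named genes are the 10 members, METTL3, in each of 4 lists up to 3 called genes with the largest log2 fold change, and the 5 genes most like FN1 or ITGB6 among 12460 with a mean of at least 50. Members, lists and motifs were chosen with earlier results of these data known. Promoters come from RefSeq (GRCh38.p14). Python 3.11.15, pandas 2.3.3 and NumPy 2.4.6 gave the remaining values.

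Libraries carry the letters a, b and c. Control and labelled knockdown libraries of the same letter deviated together in MCF10A (r across 15897 genes of 0.221, 0.200 and 0.116) and MCF10AT1 (0.110, 0.289 and 0.477), so a fit with the letter as a block is given beside results whose call it changes. Between controls of different lines, r for the same letter ran from -0.268 to 0.284. Values in that range therefore do not show that the letters mark a pairing. Alternatives were other pseudocounts and filters, no trend, equal library sums, this block, a fit of all 18 libraries and each library left out.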

Additional observations from a re-analysis of the deposited data

Results flagged for a closer look

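In 16 cases the difference between labelled knockdown and control itself differed between lines by the interaction test, with limma's adjusted p under 0.05. For the effect in MCF10AT1 minus that in MCF10A these were, as log2 differences, FN1 (11.02), ITGA5 (4.01), ITGB3 (11.43), ITGB5 (1.96), ITGB6 (-6.34), ITGB8 (-3.22) and ITGBL1 (8.59). For MCF10CA1h minus MCF10A they were FN1 (2.86) and ITGA5 (2.84). For MCF10CA1h minus MCF10AT1 they were FN1 (-8.16), ITGA5 (-1.17), ITGB3 (-8.36), ITGB5 (-1.91), ITGB6 (6.32), ITGB8 (2.15) and ITGBL1 (-8.22). The 3 contrasts share libraries. ITGB3 and ITGBL1 have groups near 0, and their values depend on the pseudocount. ITGB3 passed the filter here only through labelled knockdown MCF10AT1, which set its direction. The labelled knockdown libraries of MCF10AT1 differ from their controls in 11 of 14 epithelial markers, and the part of that in these differences was not tested.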

How the results depend on the processing

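Over 1375 recomputed values of 88 member results, no called value changed sign. Of 45 called results, 34 kept their call under each alternative run, and of 43 results that were not called, 29 were called under none. In MCF10A the count of called members was 1, beside 2.65% of all genes. It became 2 in the fit of 18 libraries (3.84%), 2 with no filter (1.41%), 2 with a pseudocount of 0.5 (2.49%) and 4 with the replicate block (7.6%). When 1 library was left out it ran from 0 to 4. It was 4 without control a (9.2%) and 0 without labelled knockdown a (0.468%) or c (0.337%). In MCF10CA1h the count of 4, beside 12.8% of all genes, became 2 in the fit of 18 libraries (1.56%), 2 with no filter (5.14%) and 2 with no trend (7.42%). It ran from 2 to 3 when 1 library was left out (7.2% to 11.8% of all genes). There the same letter gave no pairing (r of -0.011, 0.017 and 0.046), and the block left 3 (12.4% of all genes), with ITGB5 at an adjusted p of 0.0666. Between the controls of MCF10CA1h and MCF10AT1 the 3, beside 21.8% of all genes, ran from 2 (10.8% or 11.3%) to 6 (35.8%). The difference of effects between MCF10CA1h and MCF10A went from 2 (5.34% of all genes) to 4 (8.07%) under the replicate block. Beside ITGB5 in MCF10CA1h, the block changed the calls given with the results for ITGA2, ITGB1 and ITGB3 and no other member call. Over all genes, the 409 called in MCF10A became 1172 and the 2091 in MCF10AT1 became 3939 under the block, and the fit of 18 libraries called 5146 in MCF10AT1 and 248 in MCF10CA1h, against 1929. It also called ITGA2 in MCF10AT1 (adjusted p = 0.0164). Setting library sums equal moved the all-gene median from 0.02 to -0.15 in MCF10AT1 and from -0.01 to -0.15 between the controls of MCF10AT1 and MCF10A. No trend cost ITGB5 (adjusted p = 0.0505) and ITGB8 (0.0612) their calls in MCF10AT1. The cause of these changes was not tested. Depth per gene is unknown, and groups of 3 limit precision.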
